A study of Mus musculus with 74 samples.

Results

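Olfactory receptor genes, which carry the symbol Olfr in the mouse, form the largest gene family of the genome, and their coverage by H3K9me3 peaks was followed from a somatic donor nucleus through early embryonic development. Members were the autosomal protein-coding genes of GENCODE vM21 (mm10, the same assembly as GRCm38) whose symbol begins with Olfr. They numbered 1128 gene records (1127 symbols, since Olfr290 has 2 records) of 20807 autosomal protein-coding genes. Another 7 Olfr genes on the X chromosome were set aside. The genes lay on 17 of the 19 autosomes in 53 clusters, defined as neighbours at most 500 kb apart, and 1087 of them lay in the 32 clusters of at least 5 genes.

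H3K9me3, trimethylation of lysine 9 of histone H3, was measured by ULI-NChIP-seq, a low-input method that precipitates uncrosslinked chromatin cut by micrococcal nuclease. One list came from donor cumulus cells (CC), the cells that surround the oocyte, taken from B6D2F1 females. Further lists came from embryos made by placing CC nuclei (somatic cell nuclear transfer, SCNT) in enucleated B6D2F1 oocytes that were then activated with strontium chloride in the presence of cytochalasin B. The SCNT embryos were collected 6 h and 14 h post activation (6 hpa and 14 hpa), with 2, 4 or 8 cells, as morulae, and from blastocysts as inner cell mass (ICM) or trophectoderm (TE). The last list came from zygotes fertilized in a C57BL/6 cross, at pronuclear stage 5 (PN5). By the labels these 10 groups held between 2 precipitated libraries (ICM, TE and PN5) and 7 (8-cell embryos). Strain differs between PN5 and the SCNT groups, and the study took its fertilized H3K9me3 data from earlier work, so that origin, strain and experiment cannot be told apart in any comparison with PN5. The lists hold no expression values, and the labelled cell types were not checked against marker genes.

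The replicates of a group were pooled before peaks were called, so each group gave 1 list and 1 value per gene, with no replicate error and no test between groups. Intervals below are Wilson 95% intervals that cover counting over genes only. Genes of a cluster share peaks and are not independent, which makes these intervals too narrow. A base outside a peak was not detectable above the authors' threshold, which does not show that the mark was absent. The lists differed in length, from 123 Mb of autosomal sequence in 2-cell embryos to 212 Mb in CC, and a list that covers more of the genome covers more of any gene family.

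Each Olfr gene encodes an odorant receptor, a G protein-coupled receptor, and an olfactory sensory neuron expresses a single allele of a single Olfr gene. Most Olfr genes have a short coding sequence held in a single exon behind noncoding exons. In the olfactory epithelium the silent receptor genes are known to be packed in heterochromatin that carries H3K9me3. Of the 1128 genes, 1077 had all annotated coding sequence in 1 exon. The median coding length was 939 bp, the median gene body, from annotated start to end, 5994.5 bp, and the median distance from the annotated start to the first coding base 3004.5 bp. Receptor coding sequences resemble one another (median identity to the closest other Olfr gene 88.1%), and 53 genes were at least 98% identical to another, so that reads between those copies could be misplaced. Another 31 overlapped a second protein-coding gene.

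Sequences from GRCm38.p6 are shown first for a pair of promoters, the one with the highest and the one with the lowest mean peak coverage over the 10 lists, and then for a coding exon that lay in peaks in 9 of the 10 lists. Each is written 5′ to 3′, with CpG dinucleotides, the usual site of DNA methylation, in capitals. The promoter sequences are the 250 bases before the annotated start.
Olfr976 promoter: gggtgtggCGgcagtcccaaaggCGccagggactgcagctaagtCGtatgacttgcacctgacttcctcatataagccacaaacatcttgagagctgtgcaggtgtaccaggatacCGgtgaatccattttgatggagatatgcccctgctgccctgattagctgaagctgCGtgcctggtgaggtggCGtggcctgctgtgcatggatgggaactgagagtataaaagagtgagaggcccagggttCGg
Olfr164 promoter: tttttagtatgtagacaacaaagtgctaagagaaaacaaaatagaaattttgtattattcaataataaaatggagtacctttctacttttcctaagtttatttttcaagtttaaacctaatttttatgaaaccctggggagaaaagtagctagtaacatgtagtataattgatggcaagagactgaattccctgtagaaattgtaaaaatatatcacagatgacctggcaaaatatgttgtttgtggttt
Olfr406 coding exon: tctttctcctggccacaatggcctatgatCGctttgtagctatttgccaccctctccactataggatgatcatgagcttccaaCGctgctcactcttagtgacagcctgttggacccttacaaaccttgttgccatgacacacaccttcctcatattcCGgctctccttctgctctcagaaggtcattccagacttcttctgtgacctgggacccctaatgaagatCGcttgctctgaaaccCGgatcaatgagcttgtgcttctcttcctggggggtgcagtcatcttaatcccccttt

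The Olfr976 promoter (chr9:39961134-39961383, minus strand) had 55.2% GC and 7 CpG, and its 250 bases lay wholly in peaks in the CC, 6 hpa, 14 hpa, 2-cell and morula lists and outside peaks in PN5. Over the 2001 bp around the start, coverage of this promoter was 22% in CC, 32% at 6 hpa, and 100% in both the 14 hpa and the 2-cell list. In the later SCNT lists it lay between 49.6% in 4-cell embryos and 68.1% in the morula. The Olfr164 promoter (chr16:19314065-19314314, minus strand) had 28.8% GC and 0 CpG and held no peak base in any list, as did 619 Olfr promoters in all. Olfr164 was printed because its body was the longest of these, and that body was itself covered to 33.5% in CC.

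In all, 497 stretches inside cluster spans lay in peaks of all 10 lists, with 361738 bases together. The bases of Olfr406 are the centre of its 969-bp coding exon (chr11:74269725-74270024, plus strand). They lay wholly in peaks in CC and in all 8 SCNT lists and outside peaks in PN5.

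Olfr promoters were AT-rich as a group. RefSeq promoters on GRCm38.p6 were matched by symbol for 926 of the 1128 genes, and the 250 bases before the start had a median GC of 33.6% and a median of 1 CpG, against 52.4% and 6 CpG over 31396 autosomal promoters. The homeodomain core TAATTA reads the same on both strands and is of the kind bound by LHX2. It stood in 169 of 929 promoters of these genes (18.2%) and in 4.81% of all promoters of the same length. The motif holds only A and T, and whether its share exceeds what the AT content of these promoters gives was not tested. In CC, mean peak coverage of these 250 bases was 7.67% for Olfr promoters with TAATTA and 7.23% for those without. In 8-cell embryos it was 1.34% and 5.00%. The part of base content in these coverage values was not tested. Neither printed promoter held TAATTA. A second motif was scanned whose bases are not printed here. It went the other way, in 4 of 929 promoters of Olfr genes (0.431%) and in 0.790% of all promoters.

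To ask how many receptor genes were covered by H3K9me3 as a whole, a gene body with at least 50% of its length in peaks was called marked. In CC, 46 of 1128 Olfr bodies were marked (4.08%, interval 3.07 to 5.40%), beside 4.11% of all autosomal protein-coding genes. At 6 hpa 10 were marked (0.887%, interval 0.482 to 1.62%), beside 3.29% of all genes. At 14 hpa the count was 20 (1.77%, all genes 2.90%), and in 2-cell embryos 15 (1.33%, all genes 1.62%). In the lists as deposited the share of all genes lay inside the interval of the family in CC, while at 6 hpa and 14 hpa (interval 1.15 to 2.72%) the interval of the family lay wholly under the share of all genes. With every list trimmed to the length of the shortest by falling −log10 q, the CC share was 0.709% (interval 0.360 to 1.39%), also wholly under that of all genes (2.19%).

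Later stages gave 20 marked bodies in 4-cell embryos (1.77%, all genes 2.08%), 29 in 8-cell embryos (2.57%, all genes 2.09%) and 21 in the morula (1.86%, all genes 1.52%). ICM had 4 (0.355%, all genes 0.952%) and TE 8 (0.709%, all genes 0.788%). In PN5 zygotes 9 bodies were marked (0.798%, all genes 1.99%). Of all members, 97 were marked in at least 1 list (8.60%, all genes 9.21%) and none in all 10, and the median coverage of an Olfr body was 0 in every list. No peak base fell in 329 Olfr bodies in any list (29.2%), against 16.3% of all protein-coding genes, whose median body of 17629 bp is longer and so has more room for a peak.

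Promoters, taken as 1 kb on each side of the annotated start, were counted in the same way. In CC 57 Olfr promoters were at least 50% covered (5.05%, interval 3.92 to 6.49%, all genes 3.75%). At 6 hpa the number was 9 (0.798%, interval 0.420 to 1.51%), while 7.17% of all promoters were marked in that list. It was 20 in 14 hpa embryos (all genes 3.31%), 9 in 2-cell embryos (all genes 1.94%) and 9 in PN5 (all genes 3.65%). The 4-cell and the 8-cell stage had 26 each (all genes 2.55% and 2.29%), the morula 20 (all genes 1.66%), ICM 5 (all genes 1.14%) and TE 6 (all genes 1.04%). Over the 10 lists 117 Olfr promoters were marked in at least 1 list (10.4%, all genes 14.8%). The promoter window can reach into the coding exon of a short gene. Genes with both promoter and coding exons marked numbered 44 in CC, 22 in 8-cell embryos, 8 at 14 hpa and 1 in PN5. With every list trimmed to the length of the shortest, the CC count fell from 57 to 16. The share of all promoters was not computed in the trimmed lists, so the CC excess holds for the deposited lists only.

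Coding exons were counted next. As deposited, they were at least 50% covered in 177 Olfr genes in CC (15.7%, interval 13.7 to 17.9%, all genes 6.05%). The number was 105 at 6 hpa (all genes 8.46%), 134 in 14 hpa embryos (all genes 5.40%) and 100 in 2-cell embryos (all genes 3.99%). It was 134 in 4-cell embryos (all genes 5.03%) and 173 in 8-cell embryos (15.3%, interval 13.4 to 17.6%, all genes 5.27%). The morula had 155 (all genes 4.34%), ICM 60 (all genes 2.86%), TE 70 (all genes 2.86%) and PN5 48 (all genes 5.12%).

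These counts depended on how much sequence each list held. With every list trimmed to the length of the shortest, the 2-cell list, by falling −log10 q, coding exons were marked in 39 Olfr genes in CC (3.46%, all genes 3.24%), 80 at 6 hpa (7.09%, all genes 7.51%) and 26 in 14 hpa embryos (2.30%, all genes 2.46%). The share stayed above that of all genes in 4-cell embryos (7.36%, all genes 3.64%), in 8-cell embryos (9.66%, all genes 3.65%) and in the morula (4.79%, all genes 2.35%). In TE it was 3.72% (interval 2.77 to 4.99%, all genes 2.47%), and in ICM 1.77% (all genes 2.07%). In CC, in ICM and at 14 hpa the excess over all genes was thus not seen in lists of equal length, while from the 2-cell stage to the morula and in TE it was.

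In CC, 133 of the 177 genes with marked coding exons had a body below 50%, and in 8-cell embryos 145 of 173. Over the 10 lists 463 Olfr genes had marked coding exons at least once (41%, all genes 19.6%), 195 of them in 1 list only and none in all 10. Bodies annotated at 1200 bp or less hold little beyond the coding exon. There were 91 of them, and they gave 14 of the 46 marked bodies in CC, 8 of 10 at 6 hpa and 16 of 21 in the morula, so that body counts depend on how much untranslated and intron sequence was annotated.

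Within 5 kb of the first coding base, peak coverage was highest in the 250 bases that begin 250 bases after it in 9 of the 10 lists, by a narrow margin in CC and at 14 hpa. In 8-cell embryos, coverage over all Olfr genes was 3.02% in the 250 bases that begin 1000 bases before it, 18% in the 250 bases that begin 250 bases after it and 4.31% in those that begin 1000 bases after it. In CC the same windows held 5.12%, 17% and 6.78%, and coverage was 16.3% in the 250 bases that end 5 kb after it. At 6 hpa they held 1.35%, 11.9% and 1.71%, and in PN5 1.37%, 5.50% and 2.20%. At 14 hpa they held 3.18%, 12.9% and 6.12%, with 12.6% in the 250 bases that end 5 kb after it. The exception was ICM, with 7.50% inside the coding sequence and 8.30% at that distance. Over all protein-coding genes in 8-cell embryos they held 2.67%, 4.88% and 3.41%.

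**Figure D1:**
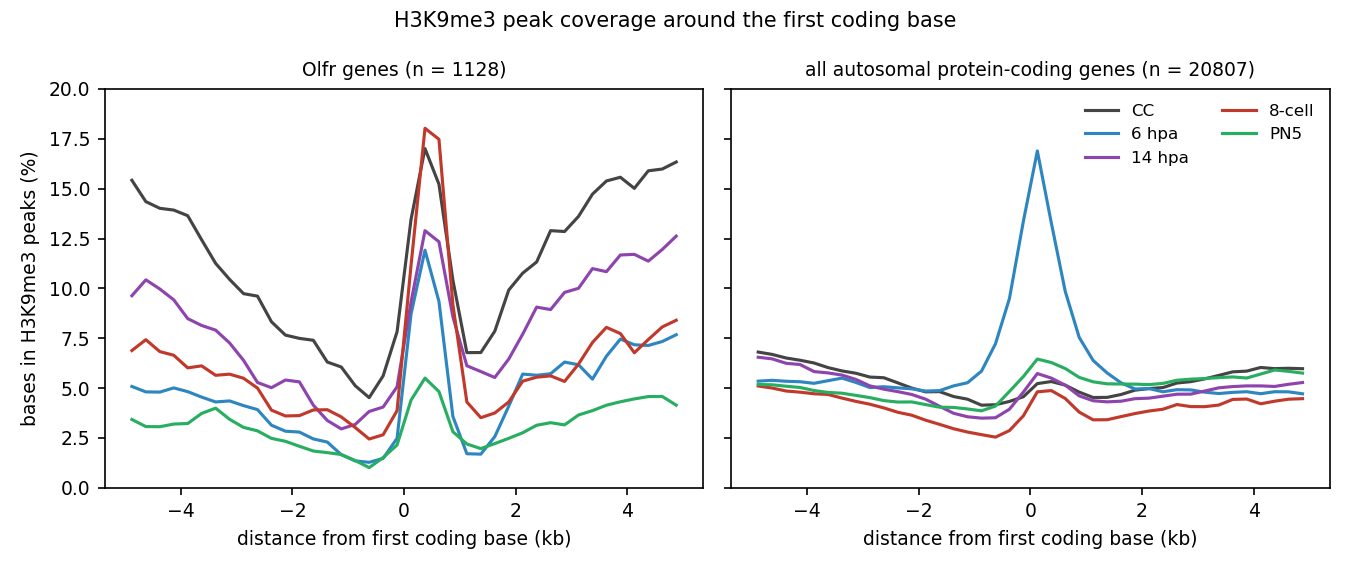
Percent of bases in H3K9me3 peaks in 250-bp steps from 5 kb before to 5 kb after the first coding base, for Olfr genes (left) and all autosomal protein-coding genes (right). Lines are CC, 6 hpa, 14 hpa, 8-cell and PN5. In Olfr genes the 8-cell line climbs from 3.02% to 18% inside the coding sequence, while among all genes the highest line is 6 hpa, with 16.9% in the first 250 coding-side bases.

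Most protein-coding genes spread their coding sequence over many exons, so Olfr genes were also set beside other genes with 1 coding exon. Only Olfr genes were left out of that set, so any Vmn1r genes (vomeronasal receptors, described below) with 1 coding exon are in it. In CC, 121 of all 208 Vmn1r genes had marked coding exons (58.2%), and the set was not counted without them. Coding exons were marked in CC in 15.4% of 1077 Olfr genes with 1 coding exon and in 14% of the 2054 other genes. Their intervals, 13.4 to 17.7% and 12.5 to 15.5%, overlap. In 8-cell embryos the shares were 15% and 11.5% (intervals 13 to 17.3% and 10.2 to 13%, which only just separate), and in the morula 13.6% and 8.81%, with intervals that were also apart. Olfr genes had the lower share at 6 hpa (9.10% against 25.9%) and in PN5 (4.18% against 10.3%). In lists of equal length the shares were 9.10% and 7.94% in 8-cell embryos and 4.83% and 4.67% in the morula, with overlapping intervals. After trimming, the intervals thus no longer set the Olfr genes apart in either list. In CC the shares after trimming were 3.53% (interval 2.58 to 4.81%) and 7.74% (interval 6.66 to 8.98%), so that Olfr genes then had the lower share there. In the other 5 lists as deposited the intervals overlapped, with shares from 5.39% against 7.11% in ICM to 11.8% against 12.9% in 14 hpa embryos. After trimming Olfr genes had the lower share, with intervals apart, at 14 hpa (2.32% against 5.89%), in ICM (1.76% against 5.01%) and in TE (3.81% against 6.13%).

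Marked coding exons were GC-rich after activation and less so in CC. Olfr genes were split by the GC content of their coding exons. In 8-cell embryos 7 of 472 genes below 43% GC were marked (1.48%, interval 0.720 to 3.03%) and 126 of 306 genes at 47% or more (41.2%, interval 35.8 to 46.8%). At 6 hpa the same shares were 2.12% and 22.5%, and in PN5 0.636% and 10.5%. In CC they were 10.6% and 15.7%, with the highest share, 27.3%, in genes of 45 to 47% GC. In lists of equal length the shares below 43% and at 47% or more were 0.424% and 28.4% in 8-cell embryos and 2.54% and 5.56% in CC.

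The order differed in other genes with 1 coding exon. There the share in CC was 36.7% below 43% GC (120 of 327 genes) and 8.19% at 47% or more. Vmn1r genes with 1 coding exon were not left out here either, and their part in this order was not tested. In 8-cell embryos 12.6% of the other genes at 47% or more were marked (interval 11 to 14.4%), against 41.2% of Olfr genes in that GC range. Their median GC in that range was 58.1%, against 49.7% for Olfr genes, so that the ranges are not matched within. The part of GC content in these shares was not tested.

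**Figure D2:**
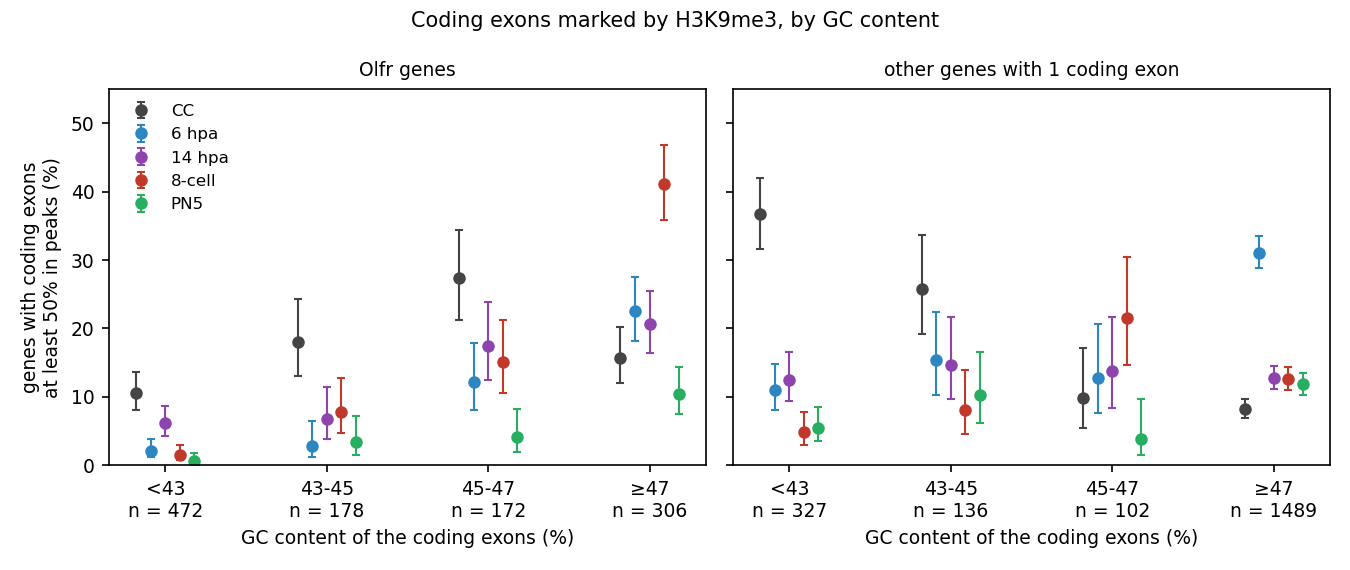
Share of genes whose coding exons were at least 50% in H3K9me3 peaks, by the GC content of the coding exons, for Olfr genes (left) and other autosomal protein-coding genes with 1 coding exon (right). Points are single lists (CC, 6 hpa, 14 hpa, 8-cell, PN5) and bars are Wilson 95% intervals over genes. The 8-cell point of Olfr genes moves from 1.48% to 41.2% from the lowest to the highest GC range.

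The sequence between the genes was covered most in CC. Over all cluster spans (30.7 Mb) the bases outside any protein-coding gene were covered to 25.4% in CC, 2.86 times the autosomal level of 8.86%, while Olfr introns were covered to 7.56%, coding exons to 14.8% and the 500-kb flanks of the clusters to 8.79%. The autosomal level and the flanks keep their genes in. Whole spans, with genes, were covered to 20.3% in CC, 2.29 times the autosomal level. At 6 hpa the sequence between genes was covered to 9.96% (1.72 times the autosomal level), at 14 hpa to 19.4% (2.24 times) and in 2-cell embryos to 8.90% (1.74 times). It was covered to 9.98% in 8-cell embryos, 15.2% in morulae, and 13.1% and 12.2% in ICM and TE. PN5 had 6.16%, 1.14 times its autosomal level, and its whole spans were covered to 5.36%, 0.995 times that level.

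As deposited, coding exons exceeded introns in all 10 lists, by 1.63 times in PN5 and by up to 3.63 times in 8-cell embryos. Among PN5 peaks of −log10 q of at least 2 the order turned, with coding exons covered 0.973 times as much as introns. In the deposited lists coding exons exceeded the sequence between genes in 4-cell embryos (12.2% against 9.51%) and in 8-cell embryos (15.3% against 9.98%) and stayed below it in the other 8 lists, by a narrow margin in the morula (14.8% against 15.2%). Whole bodies were covered less than the sequence between genes in 31 of the 32 clusters of at least 5 genes in CC and in 25 in 8-cell embryos. With every list trimmed to the length of the 2-cell list, by falling −log10 q, coding exons in CC were covered to 3.06% and introns to 2.58%, while in 8-cell embryos the values were 9.17% and 2.55%. Coding exons and introns were then nearly level at 14 hpa (2.27% and 2.25%) and close in ICM (2.05% and 1.76%). In 4-cell embryos the coding exons, at 7.23%, were then below the sequence between genes, at 7.49%. The sequence between genes was covered to 12.6% in CC and 10.9% in 14 hpa embryos, still above the 5.12% of all autosomes. The CC list was the longest and so lost the most sequence in this trimming.

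**Figure D3:**
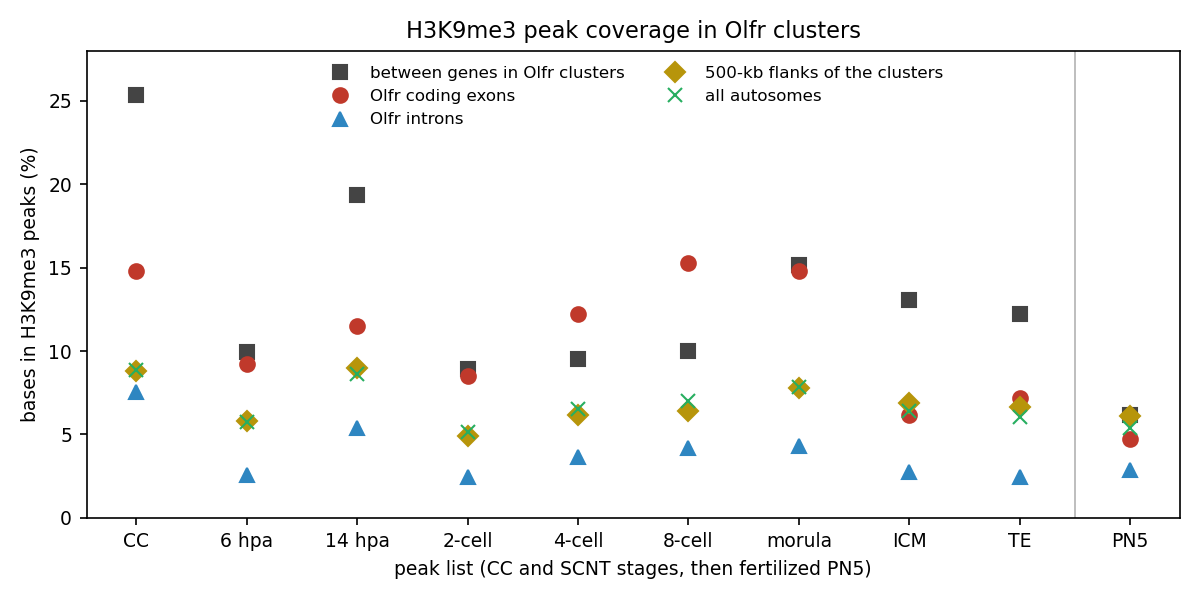
Percent of bases in H3K9me3 peaks for the sequence between genes in Olfr clusters, Olfr coding exons, Olfr introns, the 500-kb flanks of the clusters and all autosomes, in each of the 10 lists. Each symbol is 1 pooled list without a replicate error. The sequence between genes stands highest in CC (25.4%) and 14 hpa (19.4%), and coding exons stand above it at the 4-cell and 8-cell stages.

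The parts of a cluster differ in sequence. Introns had 36.2% GC, coding exons 44.7%, the sequence between genes 39.3% and all autosomes 41.9%. Soft-masked repeats made up 54.8% of the sequence between genes, 26.3% of Olfr bodies, 6.08% of coding exons and 33.5% of all autosomes. Among 1-kb windows between genes, 10.8% of those below 36% GC and 37.8% of those at 42% or more were at least 50% covered in CC, against 3.97% and 9.50% of all autosomal windows. At the 2-cell stage the values between genes were 0.246% and 23%, and over all autosomal windows 0.137% and 8.38%. Windows between genes in the highest GC range thus exceeded autosomal windows of the same range by more than 2 times in both lists. That range has no upper bound, so GC is not matched within it, and the autosomal windows include gene bodies. With genes kept in, cluster windows of that range were covered at 29.6% in CC and 18.7% in 2-cell embryos.

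Windows were also split by soft-masked share, a split chosen after the data were seen. Between genes, 11.5% of windows less than 25% masked and 41.3% of those at least 75% masked were covered in CC. Over all autosomal windows these shares were 3.83% and 29.6%. In Olfr bodies they were 6.33% and 31.9%. In 8-cell embryos windows of Olfr bodies less than 25% masked were covered at 5.15%, beside 5.06% of all autosomal windows of that range. Soft-masked share moved with coverage, and its part was not tested.

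Clusters differed widely from one another. In CC the span of the cluster of 30 genes on chromosome 11 (chr11:73350783-74366218) was covered to 58.6%, that of the 28 genes on chromosome 2 (chr2:36373519-37332772) to 54.6% and that of 39 genes on the same chromosome to 40.1%. The largest cluster, 227 genes on chromosome 2 (chr2:85330779-90403897), was covered to 7.73%, below the autosomal level, and the 49 genes on chromosome 17 to 5.79%. The median over the 32 clusters was 13.8%. The cluster with the highest value changed with the list. It was the 8 genes at the start of chromosome 7 at 6 hpa (24.3%), the chromosome 11 cluster again at 14 hpa (37.9%), the 8 genes on chromosome 1 from the 2-cell stage to the morula (30.3% in 2-cell embryos), 5 genes on chromosome 6 in ICM (31%) and TE (24.4%), and the 19 genes on chromosome 7 in PN5 (16.8%).

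The chromosome 11 cluster of 30 genes stood at 17.6% at 6 hpa and at 15.9% in 2-cell embryos, and had 8.61% in PN5. Coding exons were marked in 21 of its 30 genes in CC, 14 at 6 hpa, 16 in 14 hpa embryos, 11 in 2-cell embryos and 6 in PN5. The chromosome 2 cluster of 28 genes had 23 marked coding exons in CC, 4 at 6 hpa and 2 in PN5. The 227 genes of chromosome 2 had 2 in CC and at most 4 in any list, and their median coding GC was 41.6%.

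**Figure D4:**
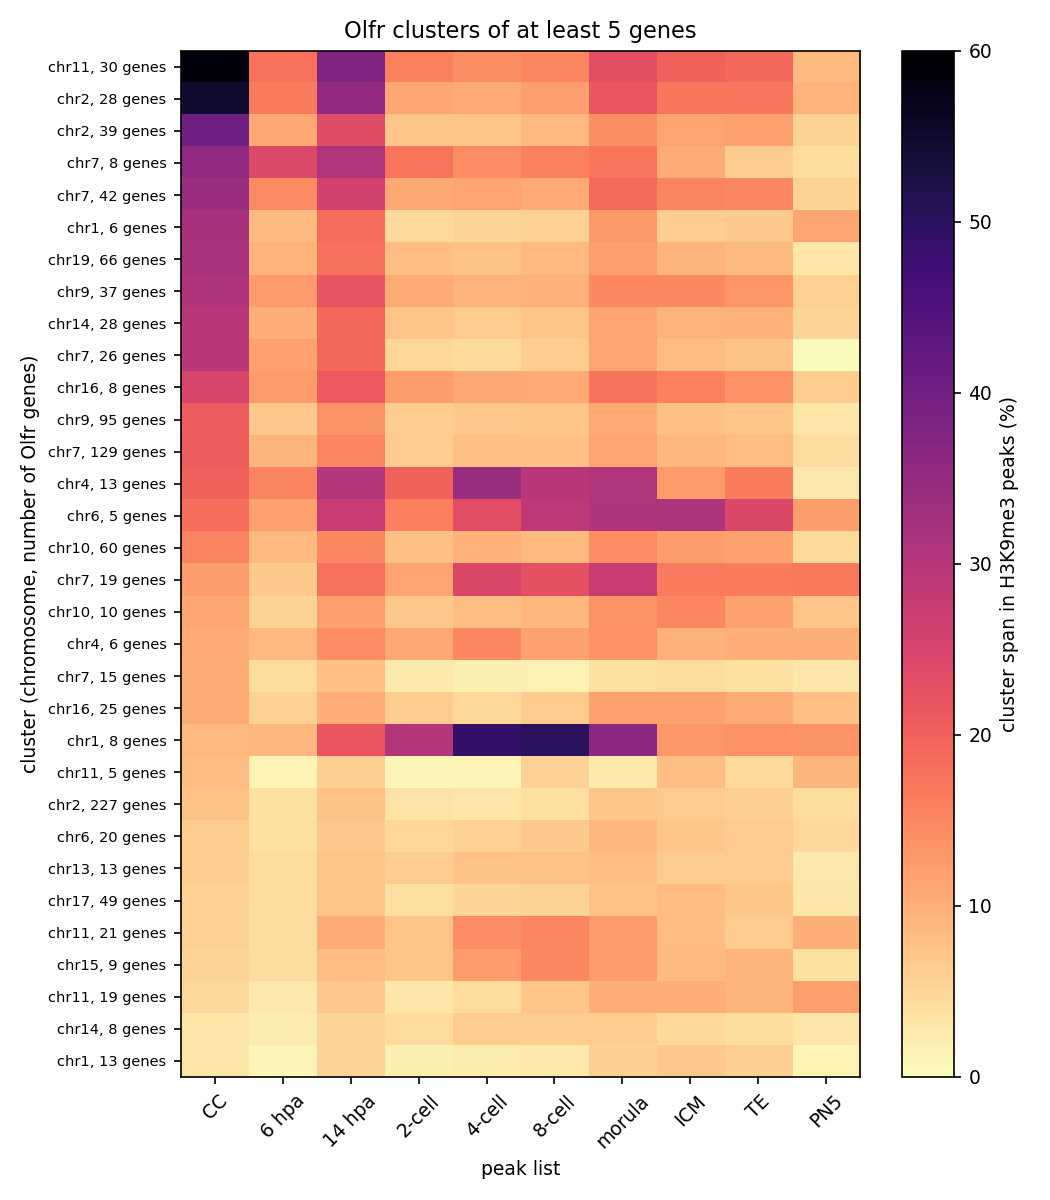
Percent of the span of each Olfr cluster in H3K9me3 peaks (colour, 0 to 60%) for the 32 clusters of at least 5 genes (named by chromosome and number of genes, in falling order of CC) in each of the 10 lists. The top of the CC column reaches 58.6%, and the row of the 8 genes on chromosome 1 is pale in CC (8.78%) and darkest in 8-cell embryos (49.9%).

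Some clusters were covered more at the cleavage stages than in CC, and a pair picked out after their values were seen is described here. Among the rest, the span of 3 genes on chromosome 11 was covered to 0% in CC and 43.2% in 8-cell embryos. The 19 genes on chromosome 7 had 0 with marked coding exons in CC and 14 in 8-cell embryos. A small cluster on chromosome 1 (chr1:92475925-92623412), which holds Olfr12 and Olfr1410 to Olfr1416, was covered most at the cleavage stages. Its span was covered to 8.78% in CC, 8.91% at 6 hpa, 21.6% in 14 hpa embryos, 30.3% in 2-cell embryos, 48.8% in 4-cell embryos, 49.9% in 8-cell embryos and 35.9% in the morula. It was covered to 13% in ICM, 13.8% in TE and 13.4% in PN5. All 8 bodies were marked in 8-cell embryos and none in CC, at 6 hpa or at 14 hpa. Coding exons were marked in 0 genes in CC, 7 in 2-cell embryos, 8 at the 4-cell and 8-cell stages, 7 in the morula, and 1 each in ICM and TE.

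Within it, Olfr1413 (chr1:92571322-92574397, plus strand) had the highest mean body coverage of all Olfr genes over the 10 lists, 51.6%. Its body was covered to 0% in CC, 11.4% at 6 hpa, 25% in 14 hpa embryos, 46.2% in 2-cell embryos, 100% in 4-cell embryos, 80.7% in 8-cell embryos and 100% in the morula, and to 20.8% in ICM, 74.3% in TE and 58.1% in PN5. Olfr1411 (chr1:92594411-92597753) was covered to 100% in PN5 and 0% in 14 hpa embryos, then to 56.9% in 2-cell embryos. Olfr1415 (chr1:92489101-92496101) went from 18.8% in 14 hpa embryos to 70.4% in 2-cell embryos and 100% in the morula. All 8 genes had coding GC above 47%, with a median of 53.3%.

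A cluster of 13 genes on chromosome 4 (chr4:118658952-118938612), Olfr62 and genes between Olfr1328 and Olfr1342, was covered to 19.8% in CC, 15.5% at 6 hpa, 30.3% in 14 hpa embryos, 34% in 4-cell embryos and 2.77% in PN5. Coding exons were marked in 4 of 13 genes in CC, 7 in 14 hpa embryos, 12 in 8-cell embryos and none in ICM or PN5. Olfr1337 (chr4:118781636-118782586) had no peak in CC, 95.7% of its body covered at 6 hpa, 74.4% in 14 hpa embryos, 69.2% in 2-cell embryos and 100% in 8-cell embryos, and none in ICM, TE or PN5. Olfr1329 (chr4:118916524-118917465) had no peak in CC, at 6 hpa or at 14 hpa and was covered to 87.2% in 2-cell embryos, 100% at the 4-cell and 8-cell stages and 83% in TE. Olfr1335 (chr4:118808797-118809944) was covered to 100% in CC, 16% at 6 hpa, none at 14 hpa and 82.8% in 2-cell embryos.

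**Figure D5:**
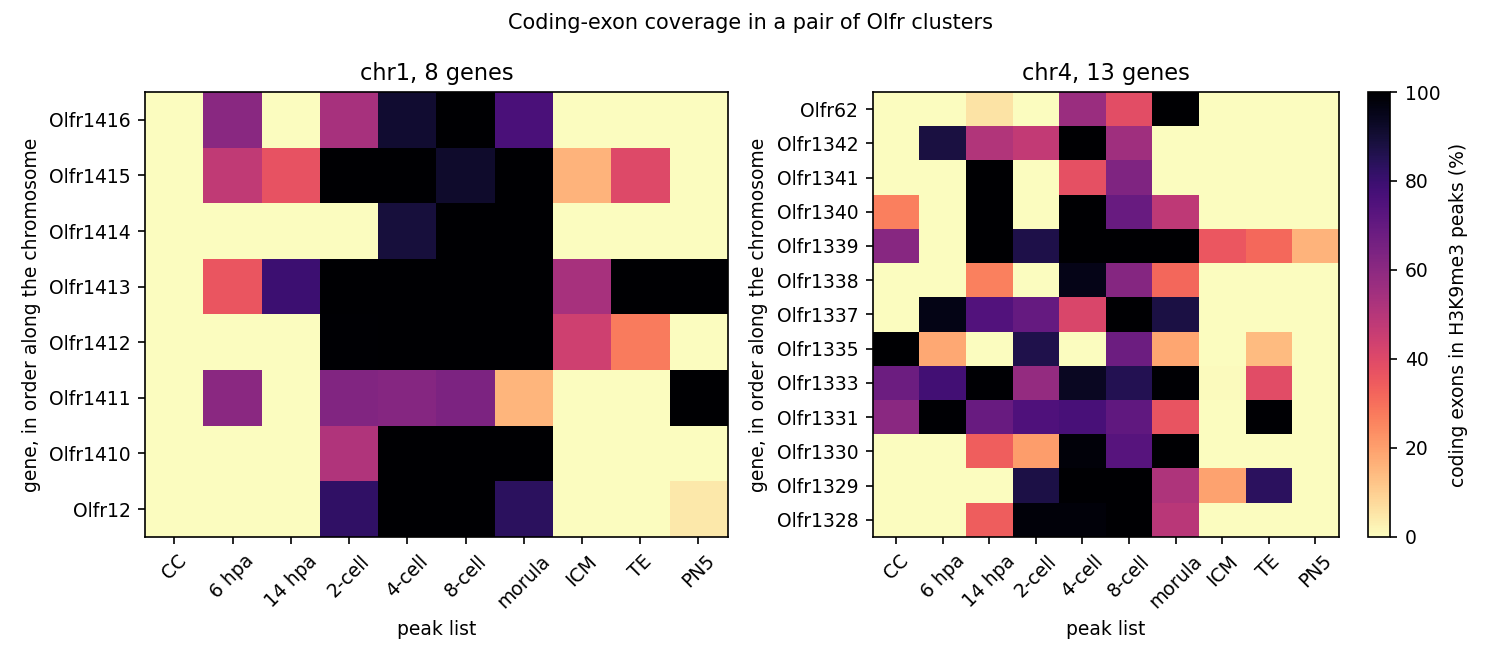
Percent of the coding exons of each gene in H3K9me3 peaks (colour, 0 to 100%) in each of the 10 lists, for the 8 Olfr genes of the chromosome 1 cluster (left) and the 13 of the chromosome 4 cluster (right), in order along the chromosome. In the left panel the CC column is empty and all 8 genes are marked at the 4-cell and 8-cell stages, and in the right panel 12 of 13 genes are marked in 8-cell embryos.

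Most receptor genes marked in CC were not marked at 6 hpa. Between CC and 6 hpa body coverage fell by at least 50 points in 28 Olfr genes (all genes 1.61%) and rose by as much in 3 (all genes 1.51%). In lists of equal length the falls numbered 4 (all genes 0.726%) and the rises 5 (all genes 1.87%), so the excess of falls was not seen after trimming. In the lists as deposited the shares of the family were 2.48% and 0.266%. Of the 46 bodies marked in CC, 7 were marked at 6 hpa (15.2% of the CC set and 70% of the 6 hpa set), against 34.7% of the CC set over all genes. Of the 177 genes with marked coding exons in CC, 53 were marked there at 6 hpa (29.9% of the CC set and 50.5% of the 6 hpa set), against 46.1% of the CC set over all genes.

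The falls from CC to 6 hpa were complete for several genes. Olfr1282 (chr2:111335159-111336076) was covered to 100% in CC and to none at 6 hpa, and the mark was seen again in the morula (82.8%) and ICM (91.5%). Olfr680-ps1 (chr7:105090702-105092817), annotated as protein-coding despite a pseudogene symbol, fell from 99% to none. Olfr1453 (chr19:13027404-13028327) went from 97.3% in CC to none at 6 hpa, to 91% in 14 hpa embryos and to none again in 2-cell embryos. Olfr402 (chr11:74153529-74158161) went from 100% to 10.4%, 64.6% and 13.8% over the same lists, and Olfr1457 (chr19:13093379-13097891) from 84.9% to none and then 34.7% in 14 hpa embryos. Beside Olfr1337, the rises at 6 hpa that reached 50 points from no peak in CC were Olfr262 (chr19:12240721-12241659), to 61%, and Olfr1344 (chr7:6438688-6442161), to 60.7%. Olfr1344 overlaps Gm20715, so its peak cannot be assigned to either gene. Olfr631 reached 37.4% and Olfr555 34.7%, both from no peak.

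From 6 hpa to 14 hpa body coverage rose by at least 50 points in 7 Olfr genes (all genes 0.533%) and fell in 2 (all genes 1.36%). After trimming, 1 rose (all genes 0.245%) and 7 fell (all genes 1.92%), the reverse order. Beside Olfr1453 and Olfr402, the largest rises were in Olfr1475, from none to 74.1%, Olfr485, from none to 64%, and Olfr938, from none to 55.4%. The falls were Olfr340 (chr2:36452587-36453525), from 80.7% to none, and Olfr891 (chr9:38179871-38180821), from 62.6% to none. Next came Olfr1344, under 50 points like the others named here, Olfr474 (69.1% to 25%) and Olfr1497 (36.1% to none). From 14 hpa to the 2-cell stage 4 bodies rose (all genes 0.279%), namely Olfr1329, Olfr1335, Olfr1411 and Olfr1415, and 9 fell (all genes 1.01%). After trimming, 8 rose (all genes 0.615%) and 0 fell (all genes 0.284%). The falls in the deposited lists included Olfr1453, Olfr1475, Olfr485, Olfr486, from 100% to 31.6%, and Olfr631, from 60.5% to none. The next rise, that of Olfr262, was from 62.7% to 100% and stayed under 50 points.

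Set beside fertilized zygotes, late 1-cell SCNT embryos at 14 hpa had the higher body coverage by at least 50 points in 16 Olfr genes (all genes 1.67%) and the lower in 6 (all genes 0.980%). Those shares of the family were 1.42% and 0.532%, both below those of all genes. In lists of equal length the counts were 2 (all genes 0.721%) and 9 (all genes 1.24%). The direction of the difference from PN5 thus turned after trimming, in the family and over all genes alike. Olfr1453, Olfr1337, Olfr1475, Olfr412 (71.9% in 14 hpa embryos) and Olfr1350 (71.8%) were highest at 14 hpa against no peak in PN5. Olfr1411 went the other way, and so did Olfr325 (none at 14 hpa, 65.5% in PN5), Olfr382 (19.2% and 84.3%), Olfr1391 (none and 53.2%) and Olfr763 (none and 52%). Coding exons were marked in 134 Olfr genes at 14 hpa and 48 in PN5, with 16 in both (11.9% of the 14 hpa set and 33.3% of the PN5 set). After trimming the counts were 26 (2.30%, all genes 2.46%) and 46 (4.08%, all genes 4.93%). Over all genes the deposited lists gave 1124 and 1066, with 277 in both.

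In 20 Olfr genes the coding exons were marked in all 4 lists from CC to the 2-cell stage (1.77%). The share was 1.25% of all genes and 2.87% of other genes with 1 coding exon. The Olfr genes were picked out after their values were seen. They were Olfr1336, Olfr1346, Olfr1348, Olfr1349 and Olfr1350 of the 8-gene cluster at the start of chromosome 7, Olfr398, Olfr402, Olfr403, Olfr43, Olfr406 and Olfr412 of the chromosome 11 cluster, Olfr638, Olfr656, Olfr657 and Olfr686 of the class I array on chromosome 7, Olfr1331 and Olfr1333 on chromosome 4, and Olfr366, Olfr17 and Olfr1491. In PN5, coding exons were marked in Olfr43 (86%) and Olfr656 (55.7%) and held no peak base in 17 of the other 18, with 19.7% in Olfr398. Over all Olfr genes, 4.26% had marked coding exons in PN5 and 91.0% held no peak base there, so this was not particular to the 20. Olfr1350 (chr7:6564841-6571401, plus strand) had its coding exon covered to 100% in all lists from CC to 2-cell, to 80.1% in 4-cell embryos and 92.5% in 8-cell embryos, to 100% in the morula and ICM, and not at all in TE. Olfr1348 (chr7:6499793-6508748, minus strand) was covered to between 69.8% in 14 hpa embryos and 100% in CC over CC and the SCNT lists, with 74.9% in TE and no peak in PN5.

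By whole bodies, the genes marked in CC that kept most coverage over 6 hpa, 14 hpa and the 2-cell stage were Olfr486, Olfr1350, Olfr345, Olfr504 and Olfr398. Olfr486 (chr7:108171798-108172742) had 65.1%, 59.2%, 100% and 31.6% over CC, 6 hpa, 14 hpa and the 2-cell stage, and 67.9% in PN5. Olfr504 (chr7:108564836-108565793) had 82.3%, 57.5%, 23.1% and 53.9% over the same lists, 85.2% in the morula and none in PN5. Olfr345 (chr2:36640041-36640976) had 73.2%, 58.1%, 71.6% and 16.1%, and Olfr398 (chr11:73979967-73990407) 91.1%, 30.7%, 46.4% and 52.7%. Olfr412 (chr11:74362069-74366218) was among the 5 highest means without being marked in CC (26.1%), with its highest value, 77.6%, in 4-cell embryos.

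Mouse receptor genes fall into class I, which resemble the receptors of fish and lie in a single array around the beta-globin genes, and class II, which holds all others. The class I array (chr7:102476579-105369355) held 129 genes, and its span was covered to 20.6% in CC, 9.29% at 6 hpa, 15.1% in 14 hpa embryos and 4.22% in PN5. Bodies were marked in 7 class I genes in CC (5.43%) and 39 of 999 class II genes (3.90%), with intervals of 2.65 to 10.8% and 2.87 to 5.29%. Coding exons were marked in 38 class I genes in CC (29.5%, interval 22.3 to 37.8%) and 139 class II genes (13.9%, interval 11.9 to 16.2%).

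Class I coding exons were also the more often marked at 6 hpa (20.9% against 7.81%), at 14 hpa (20.9% against 10.7%), in the morula (28.7% against 11.8%) and in TE (14% against 5.21%). The intervals were apart in those lists, in 2-cell embryos and in ICM, and overlapped at the 4-cell and 8-cell stages. In PN5 the shares were 4.65% and 4.20%, with overlapping intervals. Class I coding exons had a median GC of 46.4% and class II of 43.5%. Among genes of at least 47% coding GC, 24% of 50 class I genes and 14.1% of 256 class II genes were marked in CC (intervals 14.3 to 37.4% and 10.3 to 18.9%), and 44% and 40.6% in 8-cell embryos. Within that range both pairs of intervals overlap. Among genes of 43 to 45%, 39.1% of 23 class I genes and 14.8% of 155 class II genes were marked in CC. Those intervals (22.2 to 59.2% and 10.1 to 21.3%) were apart, while in the other GC ranges the CC intervals overlapped. At 47% or more class I also had the higher share at 6 hpa (34% against 20.3%) and in the morula (48% against 30.5%), with overlapping intervals. In 4-cell embryos the shares there were 32% and 33.6%. Because class I is a single locus, its class and its place in the genome cannot be told apart.

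None of the receptors much used in the field that are named here had a marked body in any list, although some promoters and coding exons were marked. Of all 1128 Olfr genes, 1031 likewise had no marked body in any list. Olfr17 (P2, chr7:107093220-107099808) had a body covered to 40.9% in CC, 21.7% at 6 hpa, 26.1% in 14 hpa embryos and 8.47% in 2-cell embryos, and none in PN5, while its coding exon was covered to 76.9%, 84.9%, 100% and 59%. Olfr2 (I7, chr7:106995399-107006072), a receptor for octanal, had 30.7% in CC, 1.67% at 6 hpa and 17.7% in 14 hpa embryos. Olfr16 (MOR23, chr1:172950409-172958357), a receptor for lyral, had 18.4%, 9.96% and 25.8%. Neither body held a peak in PN5. In CC the promoters of Olfr17 (60.4%), Olfr2 (64.8%) and Olfr16 (66.3%) were marked, and the coding exon of Olfr2 was covered to 95.9%.

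Olfr73 (mOR-EG), a receptor for eugenol, and Olfr544, a receptor for azelaic acid, held no peak base in any list. The body of Olfr78, a receptor for short-chain fatty acids that overlaps Olfr560, was covered to at most 4.44%, that of Olfr160 (M72) to at most 12.4% and that of Olfr545 to at most 6.96%. The body of Olfr558 reached 21.5% in 4-cell embryos, and its promoter was marked in 8-cell embryos (53.4%). The neighbours Olfr1507 (MOR28), Olfr1508 (MOR10) and Olfr1509, whose transcription depends in olfactory neurons on the nearby H enhancer, reached at most 11.8%, 12.5% and 18.1%. The member with the highest mean in each of the 6 largest clusters was Olfr1152 on chromosome 2 (34.2% over the 10 lists), Olfr631 in the class I array (33.9%), Olfr975 on chromosome 9 (29.1%), Olfr262 on chromosome 19 (37.6%), Olfr784 on chromosome 10 (35.5%) and Olfr138 on chromosome 17 (21.5%).

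Olfr1152, the leader of the largest cluster, had a body covered to 31.2% in CC, 15.7% at 6 hpa and between 31.4% in 8-cell embryos and 45.6% in 14 hpa embryos in the other SCNT lists, and to 24.1% in PN5. Olfr784 lay between 21.1% in 4-cell embryos and 49.2% in 14 hpa embryos, with 37.5% in PN5. Neither was marked in any list, and both had some coverage in all 10.

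Vomeronasal receptor genes, the chemoreceptor families of the vomeronasal organ, were marked more often than Olfr genes in the donor cells. In CC 52.4% of 208 Vmn1r bodies (interval 45.6 to 59.1%) and 38% of 121 Vmn2r bodies (interval 29.9 to 46.9%) were marked, against 4.08% of Olfr bodies. After trimming the shares in CC were 23.6%, 6.61% and 0.709%. At 6 hpa the shares were 9.62%, 0% and 0.887%. In 8-cell embryos they were 2.40%, 0.826% and 2.57%. For coding exons in 8-cell embryos the order was Olfr 15.3%, Vmn1r 9.13% and Vmn2r 2.48%, with overlapping intervals for Olfr (13.4 to 17.6%) and Vmn1r (5.93 to 13.8%). After trimming these shares were 9.66% (interval 8.07 to 11.5%), 2.88% (interval 1.33 to 6.15%) and 1.65%, with intervals apart for Olfr and Vmn1r.

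Peaks inside Olfr clusters were denser than over the autosomes and of similar height. There were 3894 in CC, 127 per Mb of span against 59.2 per Mb over the autosomes, and 114 against 76.8 in 8-cell embryos. The margin was smallest in PN5, with 59.3 against 53.1 per Mb. The authors' median fold enrichment over input was 2.68 in the clusters and 2.71 over all autosomal peaks in CC, and 2.88 and 2.87 in 8-cell embryos. Median peak width was 944 bp in the clusters and 738 bp over the autosomes in CC, and 514 bp and 574 bp in 8-cell embryos.

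Genes of the olfactory pathway that are not receptors, together with general heterochromatin genes, were counted too. Some encode the transduction machinery (Gnal, Adcy3, Cnga4, Cngb1, Ano2) and receptor chaperones (Rtp1, Rtp2). Others encode regulators of receptor choice (Lhx2, Ldb1, Emx2, the Ebf genes, Kdm1a, Atf5) and heterochromatin proteins. Of 24 such genes, 1 had a marked body in any list, beside 9.21% of all genes. This was Omp, the olfactory marker protein, covered to 82.5% in PN5 and to none elsewhere. Promoters were marked at 6 hpa in Ebf3 (94.4%), Lhx2 (56.4%) and Ebf4 (54.8%), in a list with 7.17% of all promoters marked, and in PN5 in Omp (56.8%). None of the 24 promoters was marked in CC or from 14 hpa to TE, lists in which between 1.04% and 3.75% of all promoters were marked.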

How the data were processed

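ULI-NChIP-seq reads from 41 H3K9me3 and 33 input libraries in 20 groups were processed by the authors, who trimmed them with Cutadapt (1.16, per the labels), aligned them to mm10 with BWA, merged replicates, removed duplicates, drew all groups to 1 read number and called broad peaks with MACS2 over input. Versions of the other tools are not given in the sources used here. The deposited lists hold peak positions, the fold enrichment of precipitate over input, −log10 p and −log10 q, and a score that the authors' caller derived from q. No read counts were used, so depth per gene is unknown.

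Overlapping peaks of a list were merged, and the percent of each GENCODE vM21 body, promoter, coding exon set and cluster in peaks was computed (Python 3.11.15, NumPy 2.4.6). Identity between coding sequences came from BLAST+ 2.17.0. Wilson intervals used the 95% level. Coverage code was tested on simulated data. Members, lists and named genes were chosen with earlier results of these data known. Named genes were the 5 highest by mean body coverage, the 5 marked in CC with the highest mean over 6 hpa, 14 hpa and 2-cell, the 5 largest rises and falls in 4 pairs of lists (ties by longer body), much-used receptors (Olfr151 had no record in the table), and the leading gene of the 6 largest clusters. The coding-exon counts, the soft-masked split and the gene sets said to be picked later were added after the values were seen. One sequence within the clusters is not reported here.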

Additional observations from a re-analysis of the deposited data

How the results depend on the processing

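No paired analysis was possible because each group has a single list made from its merged replicates. Leaving out a replicate could not be tried either. Counts kept within 1.5 times of their value, and coverage within its interval, are not repeated. Except where all genes are named, the counts in this section are of Olfr genes alone. They do not show whether the family moved differently from all genes. The alternatives for coding exons, other genes with 1 coding exon and vomeronasal receptor genes were chosen after seeing the data. Leaving out genes at least 98% identical to another moved no count of bodies, promoters or changes beyond 1.5 times. With 25% coverage as the threshold, marked Olfr bodies numbered 149 in CC, 39 at 6 hpa, 87 at 14 hpa, 38 at 2-cell, 64 at 4-cell, 70 at 8-cell, 65 in morula, 29 in ICM, 28 in trophectoderm and 28 in PN5 zygotes. Marked Olfr promoters numbered 119 in CC, 34 at 6 hpa, 55 at 14 hpa, 32 at 2-cell, 51 at 4-cell, 76 at 8-cell, 57 in morula, 17 in ICM, 18 in trophectoderm and 31 in PN5 zygotes. With 75% coverage, marked Olfr bodies numbered 19 in CC, 2 at 6 hpa, 2 at 14 hpa, 4 at 2-cell, 8 at 4-cell, 8 at 8-cell, 9 in morula, 2 in ICM, 3 in trophectoderm and 2 in PN5 zygotes. Over all 20807 genes such bodies numbered 523 in CC, 272 at 6 hpa, 274 at 14 hpa, 131 at 2-cell and 179 at 4-cell. They numbered 154 at 8-cell, 120 in morula, 78 in ICM, 69 in trophectoderm and 131 in PN5 zygotes. Marked Olfr promoters numbered 16 in CC, 4 at 6 hpa, 5 at 14 hpa, 1 at 2-cell, 11 at 4-cell, 10 at 8-cell, 9 in morula, 2 in ICM, 1 in trophectoderm and 3 in PN5 zygotes. With coding exons in place of whole bodies, marked Olfr bodies numbered 177 in CC, 105 at 6 hpa, 134 at 14 hpa, 100 at 2-cell, 134 at 4-cell, 173 at 8-cell, 155 in morula, 60 in ICM, 70 in trophectoderm and 48 in PN5 zygotes. With promoters taken from 250 bases before to 50 after the start, marked Olfr promoters numbered 21 at 6 hpa, 31 at 14 hpa, 18 at 2-cell, 44 at 4-cell, 46 at 8-cell, 33 in morula, 10 in ICM, 10 in trophectoderm and 19 in PN5 zygotes. With changes of 25 points, changed Olfr bodies numbered 10 higher in 6 hpa than CC, 101 lower in 6 hpa than CC, 48 higher in 14 hpa than 6 hpa, 14 lower in 14 hpa than 6 hpa, 10 higher in 2-cell than 14 hpa, 46 lower in 2-cell than 14 hpa, 65 higher in 14 hpa than PN5 and 14 lower in 14 hpa than PN5. With changes of 75 points, changed Olfr bodies numbered 1 higher in 6 hpa than CC, 7 lower in 6 hpa than CC, 1 higher in 14 hpa than 6 hpa, 1 lower in 14 hpa than 6 hpa, 2 higher in 2-cell than 14 hpa, 1 lower in 2-cell than 14 hpa, 1 higher in 14 hpa than PN5 and 1 lower in 14 hpa than PN5. Keeping only peaks at or above a −log10 q of 2, marked Olfr bodies numbered 6 at 6 hpa, 11 in morula, 4 in trophectoderm and 1 in PN5 zygotes. Marked Olfr promoters numbered 13 at 8-cell, 3 in ICM and 5 in PN5 zygotes. Genes with marked coding exons numbered 50 at 6 hpa, 82 at 14 hpa, 83 at 4-cell, 92 at 8-cell, 102 in morula and 14 in PN5 zygotes. Changed Olfr bodies numbered 1 lower in 14 hpa than 6 hpa, 5 lower in 2-cell than 14 hpa and 1 lower in 14 hpa than PN5. Peaks covered 17.6% in CC, 6.28% at 6 hpa, 13.4% at 14 hpa, 6.58% at 2-cell, 6.34% at 4-cell, 5.54% at 8-cell, 10.2% in morula, 9.45% in ICM, 8.46% in trophectoderm and 3.09% in PN5 zygotes of the Olfr cluster span. With lists trimmed to equal length, marked Olfr bodies numbered 8 in CC, 3 at 14 hpa, 5 in morula, 1 in ICM and 3 in trophectoderm. Marked Olfr promoters numbered 16 in CC, 10 at 14 hpa, 14 at 8-cell, 12 in morula, 2 in ICM and 3 in trophectoderm. Genes with marked coding exons numbered 39 in CC, 26 at 14 hpa, 83 at 4-cell, 109 at 8-cell, 54 in morula, 20 in ICM and 42 in trophectoderm. Changed Olfr bodies numbered 5 higher in 6 hpa than CC, 4 lower in 6 hpa than CC, 1 higher in 14 hpa than 6 hpa, 7 lower in 14 hpa than 6 hpa, 8 higher in 2-cell than 14 hpa, 0 lower in 2-cell than 14 hpa and 2 higher in 14 hpa than PN5. Peaks covered 9.72% in CC, 7.34% at 6 hpa, 8.40% at 14 hpa, 6.34% at 4-cell, 6.20% at 8-cell, 8.18% in morula, 8.14% in ICM, 8.09% in trophectoderm and 5.10% in PN5 zygotes of the Olfr cluster span. With cluster gaps of at most 100 kb, peaks covered 21.1% in CC of the Olfr cluster span. With cluster gaps of at most 1 Mb, peaks covered 18.9% in CC and 14.9% at 14 hpa of the Olfr cluster span. The number of genes limits the intervals, and the depth of the reads behind a peak is not in the lists, so a gene without a peak was not detectable and not shown to be free of the mark.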

Other observations

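The 7 Olfr genes on the X chromosome, which were left out of all counts, were below 50% body coverage in every list. Olfr1324 was covered to 12.0% in CC, to between 23.8% in TE and 39.0% at the 4-cell stage in the SCNT lists, and not at all in PN5. Olfr1323 had its highest value in CC (29.4%) and at most 8.26% in the SCNT lists. Olfr1326-ps1 held no peak base in any list.

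High GC did not go with marked coding exons in every cluster. In the 9 genes on chromosome 15 the median coding GC was 53.3%, and coding exons were marked in at most 2 genes in any list. In the 6 genes on chromosome 4 the median was 54.4%, and at most 1 gene was marked.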
